A study of Mytilus galloprovincialis with 40 samples.

Results

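Of the 1920 cDNA clones printed on a mussel microarray, 128 changed over the year and reached their highest level in September or October. They were selected on measured values: a moderated F test of limma over the 12 months had to give an adjusted p under 0.05, and the highest of the 12 fitted monthly levels had to fall in September or October. September was the highest month of 62 clones and October that of 66. The F test was passed by 719 clones, or 37.4% of all clones, and the 128 were 6.67% of all clones. A highest month in September or October was about as frequent among clones that passed the test as in general: 332 clones had their highest month there, which is 17.3% of all clones, against 17.8% of the 719. As the 128 clones were chosen by these ratios, their levels and steps are given below as a description from which no test is read.

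The samples were pieces of digestive gland of single female Mytilus galloprovincialis from the Bizerta Lagoon, 1 set of animals per month between May 2007 and April 2008, with no treatment. Each of the 40 arrays set an animal of a given month against an animal of the preceding month, and a step is written as later over earlier month (Feb/Jan). A step had 4 arrays where its earlier month was January, February, March or April, and 3 otherwise. The step May/Apr closed the loop and joined April 2008 to May 2007, months that do not follow each other. September and October animals were on 9 arrays: Sep/Aug, Oct/Sep and Nov/Oct, 3 of each. The methods state that females came from the gonad stage most common at the time, so that month and gonad stage cannot be told apart. Whether an animal used in a step was also used in the next is not given in the sources used here.

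In the mussel the digestive gland takes up and digests food particles, holds reserves of lipid and glycogen, and is a site of detoxification and immune defence. Its reserves are drawn on when the gonad ripens, and in temperate mussels gamete formation usually sets in during autumn, after a resting period in summer. A cDNA clone on such an array is a printed piece of a copied messenger RNA, and its ratio between dyes compares the abundance of that messenger in a pair of animals. A lower ratio can come from fewer cells of a type or from less RNA per cell, which cannot be told apart in a whole organ. The clones carry codes such as Myt01-016C08, and 0 of the 1920 codes occur in RefSeq's gene table for the species. Gene roles, gene lists, sequences and tissue or cell type markers are for this reason not analysed here.

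The share of spots above background in both dyes was 13.6% to 78.4% over the arrays and 35.2% to 59.5% over the 3 Oct/Sep arrays. Replicate 1 of Apr/Mar had the opposite course to the other 3 arrays of its step, with r between -0.81 and -0.62 over all clones and between -0.93 and -0.73 over the 128. The dyes are stated in the labels, so it was used as labelled. By the labels, replicate 1 carried the later month in Cy3 in Apr/Mar and Sep/Aug and in Cy5 in every other step. The cause of the opposite course was not tested. With its sign turned the rule gave 131 clones, of which 110 were among the 128.

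The 128 clones were brighter at the median than all clones, as were the other clones that passed the F test. Brightness is the mean log2 intensity of the 2 dyes, and its median over the 40 arrays was 8.49 for the 128 clones, 8.11 for the 591 other clones that passed the F test and 7.31 for all clones. Among clones that passed the F test, the median was 9.11 for those highest in August and 8.99 for those highest in February. It was 8.60 for the September clones and 8.33 for the October clones. The median clone of the 128 stood above background on 66.9% of its array spots, against 57.5% for the 591 others and 30% over all clones. Of the 128, 21, or 16.4%, did so on under 25% of their array spots, against 45.1% of all clones, and 1 on no array. On the Oct/Sep arrays 9 of the 128 had no spot above background, on the Sep/Aug arrays 3 and on the Nov/Oct arrays 18. The shares of all clones for these steps are not given here. The brightest clone spot was far below the limit of the scanner, at 40114 of 65535. By the first 3 digits of the code the clones fall into 20 groups of 96, and the 128 were spread over 19 of them, with 16 in group 016, 15 in group 009 and 0 in group 020, where 1 clone passed the F test.

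The yearly range was of moderate size in most clones. The highest and the lowest month differed by a median of 2.23-fold, with a smallest value of 1.26-fold and a largest of 19.3-fold. At least 2-fold was reached by 79 clones and at least 4-fold by 23. The median for the 591 other clones was 2.03-fold. The lead over the second month was small, with a median of 0.15 on the log2 scale, and 12 clones led by at least 0.5. September and October were the 2 highest months in 37 clones, 18 with September first and 19 with October first. For 20 of the 128 the second month was August and for 17 it was April.

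**Figure D1:**
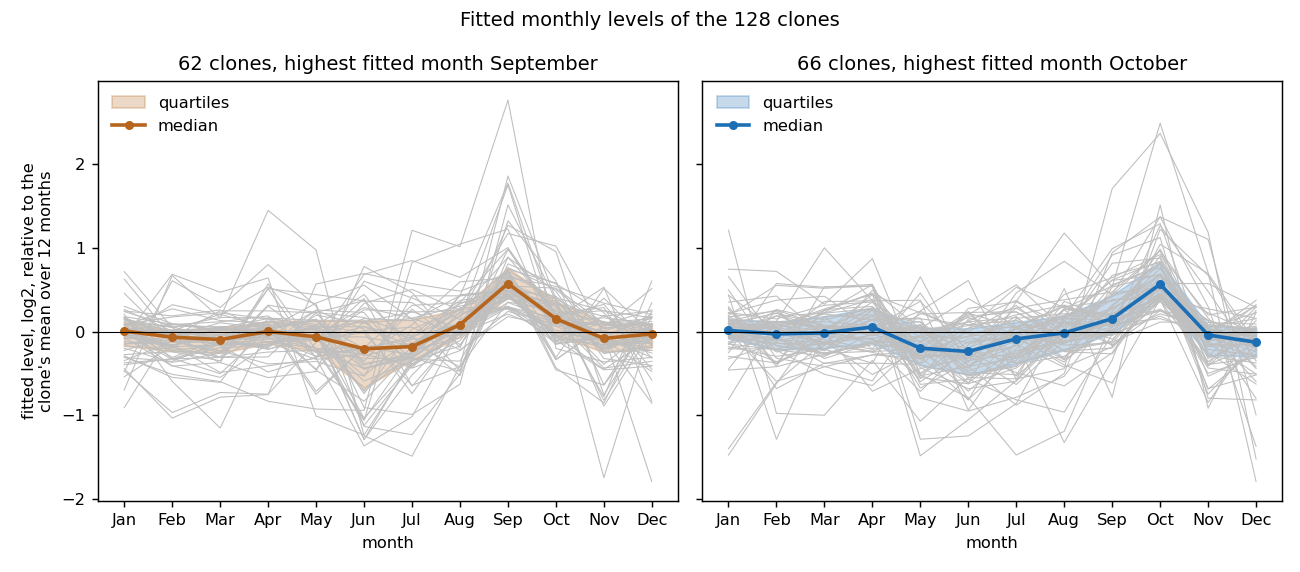
Fitted level of each of the 128 clones (thin lines, log2, relative to the clone's own mean over the 12 months) by month, with the median and quartiles, for the 62 clones highest in September and the 66 highest in October. The medians stand at 0.57 in September in the first panel and at 0.56 in October in the second, and the lowest medians of both panels are in June.

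Relative to each clone's mean over the year, the 62 September clones had a median level of 0.08 (log2) in August, 0.57 in September, 0.15 in October and -0.08 in November. For the 66 October clones the medians were -0.02 in August, 0.15 in September, 0.56 in October and -0.04 in November. The split by highest month fixes which of September and October stood higher in each group. The median of the other month of the pair was only slightly above the yearly mean. June was the lowest point of the medians in both groups, at -0.21 and -0.24.

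The clones differed among themselves in where the low part of the year lay. The lowest month was in May to August for 74 clones and in November to April for 53, and 1 clone, Myt01-013B05, was lowest in September itself. June alone was the lowest month of 36. The rule leaves September and October almost no part in this count, whereas 143 of the 591 other clones were lowest there. Among clones lowest in the other 10 months the share with a low in May to August was 58.3% of 127 clones here and 54.0% of 448 others. The clones with a summer low had a median of -0.43 in June and of 0.05 in April. Those with a winter low had a median of 0.10 in June, -0.21 in February, -0.17 in March and -0.16 in November. In both sets the September median (0.33 and 0.45) and the October median (0.40 and 0.39) were the highest of the year, which the choice by highest month favours.

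The steps into and out of the peak were read from the same fit, with a call where the adjusted p was under 0.05 and the log-odds B above 0. From August to September 19 of the 128 clones rose, against 1.25% of all clones, and 15 of the 19 were September clones. From October to November 29 fell, against 3.02% of all clones, and 23 of these were October clones. In Oct/Sep 8 clones rose, all October clones, against 0.938% of all clones, and 7 fell, all September clones, against 0.99%, a division that the rule fixes. From October to November 1 clone, Myt01-016C08, rose, against 6.61% of all clones. A rise in Sep/Aug, a change in Oct/Sep or a fall in Nov/Oct was called in 51 clones, and none of these in 77. The share of all clones with such a call was not counted, and the rule favours these directions. Without the third Nov/Oct array 11 clones fell in Nov/Oct, and without the second Sep/Aug array 8 rose in Sep/Aug.

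Counted on the arrays themselves, 68 of the 128 clones were higher in September than in August on each of the 3 Sep/Aug arrays, against 18.4% of all clones, and 83 were lower in November than in October on each of the 3 Nov/Oct arrays, against 23% of all clones. Both were true of 38 clones, against 86 of the 1920. The mean of September and October was called above the mean of the other 10 months in 12 clones, against 0.729% of all clones, with differences between 1.39-fold for Myt01-018B11 and 5.43-fold for Myt01-016G08. Above January, the reference month of the study, 2 clones were called in September, against 0.417% of all clones, and 5 in October, against 0.365%. Myt01-018B11 was in both sets, and a dye effect was also called in this clone, as given below.

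**Figure D2:**
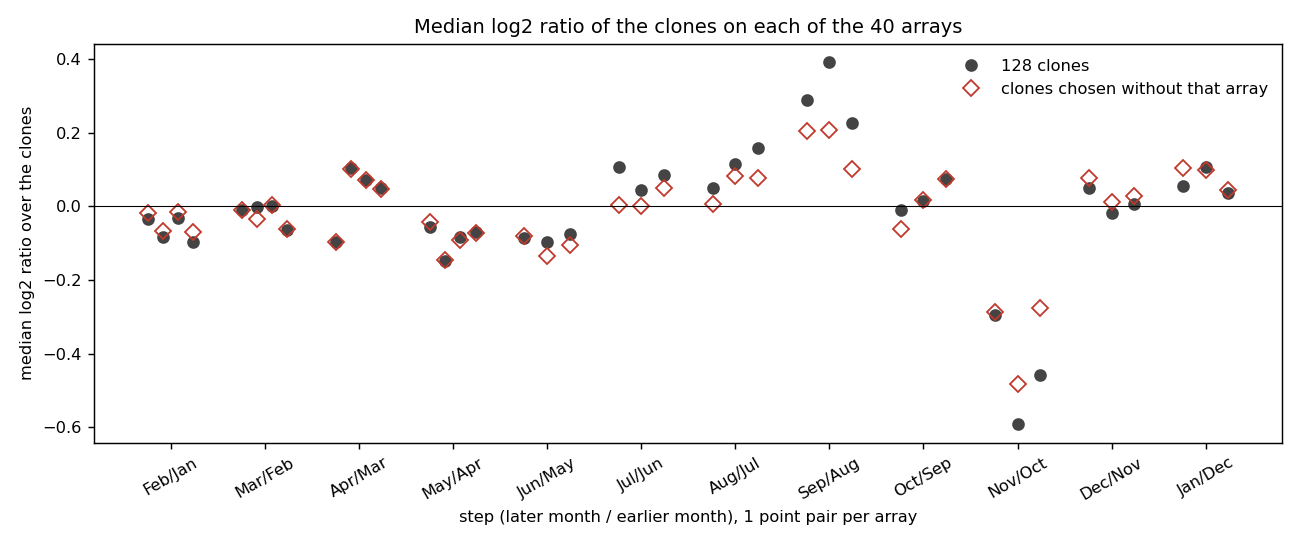
Median log2 ratio (later month over earlier month) on each of the 40 arrays, by step, over the 128 clones (filled circles) and over the clones that the rule chose when that array was left out (open diamonds). The Sep/Aug arrays lie above 0 and the Nov/Oct arrays below -0.27 with either choice.

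To read each array apart from the choice of clones, the clones were chosen again without it. This gave 119 to 138 clones, of which 107 to 123 were among the 128. On the 3 Sep/Aug arrays the clones chosen without the array had median log2 ratios of 0.21, 0.21 and 0.10. On the 3 Nov/Oct arrays the medians were -0.29, -0.48 and -0.27, and on the 3 Oct/Sep arrays -0.06, 0.02 and 0.07. The 31 arrays of the other 9 steps ranged from -0.15 to 0.11. All 3 Nov/Oct arrays were outside this range and the third Sep/Aug array was within it. The other 2 arrays of a step still took part in each choice, and the sets of clones overlap, so the values are given without a test.

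Among the September clones, Myt01-013F02, Myt01-010F02 and Myt01-009F02 were 3 of the 4 with the smallest p in the F test, and they moved alike. Myt01-009F02 had log2 ratios of 2.50, 2.29 and 2.01 on the Sep/Aug arrays, of -1.46, -1.26 and -1.67 on the Oct/Sep arrays and of -2.15, -1.90 and -2.33 on the Nov/Oct arrays. It rose into September and fell in both following steps on every array, so that the arrays of the first step do not overlap with those of the others. The fitted rise was 4.81-fold, or 2.27 ± 0.44 (SE, log2), and the yearly range 12.1-fold. With no background correction the range was 8.78-fold.

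Myt01-013F02 had Sep/Aug ratios of 1.84, 1.84 and 1.52, Oct/Sep ratios of -0.97, -0.92 and -0.55 and Nov/Oct ratios of -1.42, -0.90 and -1.67. Myt01-010F02 had Sep/Aug ratios of 2.20, 1.93 and 2.00, Oct/Sep ratios of -1.47, -0.86 and -1.38 and Nov/Oct ratios of -1.07, -1.08 and -1.93. The arrays of each step kept their sign in both clones, and the fitted rises into September were 3.54-fold and 4.41-fold. The mean of September and October was called above the other 10 months in Myt01-013F02, but not in Myt01-010F02 or Myt01-009F02. Fitted levels in April were 0.53, 0.80 and 1.45 in the order Myt01-013F02, Myt01-010F02, Myt01-009F02, against 1.32, 1.51 and 1.85 in September. The April level of Myt01-009F02 includes the first Apr/Mar array, at -1.77, against 2.01 to 2.72 on the other arrays of the step. Its margin over April is therefore uncertain. The Apr/Mar arrays were divided on the rise into April: Myt01-010F02 was higher on 2 of the 4 and the other clones on 3 of the 4, and on these arrays Myt01-013F02 and Myt01-010F02 had 0 of 8 spots above background. In June and July their levels lay between -1.49 and -0.91. Over the 12 fitted months the pairs of these clones correlated with r = 0.95 (Myt01-013F02 with Myt01-010F02), 0.91 (Myt01-013F02 with Myt01-009F02) and 0.96 (Myt01-010F02 with Myt01-009F02), months that share the error of the same arrays. Over the 40 arrays the same pairs had r = 0.91, 0.92 and 0.93. Whether these codes stand for copies of a single transcript was not analysed here.

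The September clone with the smallest p, Myt01-016C08, followed another course. Its Sep/Aug ratios were 0.73, 0.96 and 0.46, its Oct/Sep ratios -1.19, -0.72 and -1.24 and its Nov/Oct ratios 0.42, 1.01 and 0.97. October was a single low month between September and November on all arrays of the last 2 steps. February, at 0.68, and April, at 0.64, stood close to its September level of 0.72, while May and June lay at -1.01 and -1.23. Its mean of September and October exceeded the other 10 months by 0.25 ± 0.17 (SE, log2), the smallest such value among the 4 September clones.

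The 4 October clones with the smallest p fell on every Nov/Oct array. Myt01-017B08 had Nov/Oct ratios of -1.27, -1.25 and -1.39, Oct/Sep ratios of 0.25, 0.65 and 0.85 and Sep/Aug ratios of 0.44, 0.44 and 0.26. It climbed over both steps on every array and fell in the next, and its replicate arrays lay closer together than those of the other 3. Myt01-005F03 had the same signs throughout, with Sep/Aug ratios of 1.21, 1.00 and 1.46, Oct/Sep ratios of 1.16, 0.37 and 0.76 and Nov/Oct ratios of -1.12, -0.88 and -1.60. October was its highest month by a narrow margin over April, with fitted levels of 0.98 and 0.87. The April level includes the first Apr/Mar array, where this clone had -0.96, against 0.83 to 1.03 on the other arrays of the step. The margin over April is therefore uncertain.

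Myt01-009F03, the brightest of the 4, had Nov/Oct ratios of -1.49, -1.49 and -1.71 and Sep/Aug ratios of 0.78, 1.29 and 0.46. Its Oct/Sep ratios of -0.37, 1.22 and 0.13 had no common sign, so that September and October did not separate. Myt01-016G08 had Sep/Aug ratios of 0.71, 3.23 and 1.66, Oct/Sep ratios of 0.01, 1.39 and -0.27 and Nov/Oct ratios of -0.74, -2.38 and -1.25. Its signs in the outer steps held on each array, but the SD over the 3 arrays was 1.27 in Sep/Aug. This clone had the largest difference between the mean of September and October and the other 10 months, 2.44 ± 0.41 (SE, log2), and a yearly range of 14.7-fold, which was 9.68-fold with no background correction and 24.7-fold without the May/Apr arrays. January was also high in this clone, at 1.21, between December at -1.52 and February at -0.98.

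**Figure D3:**
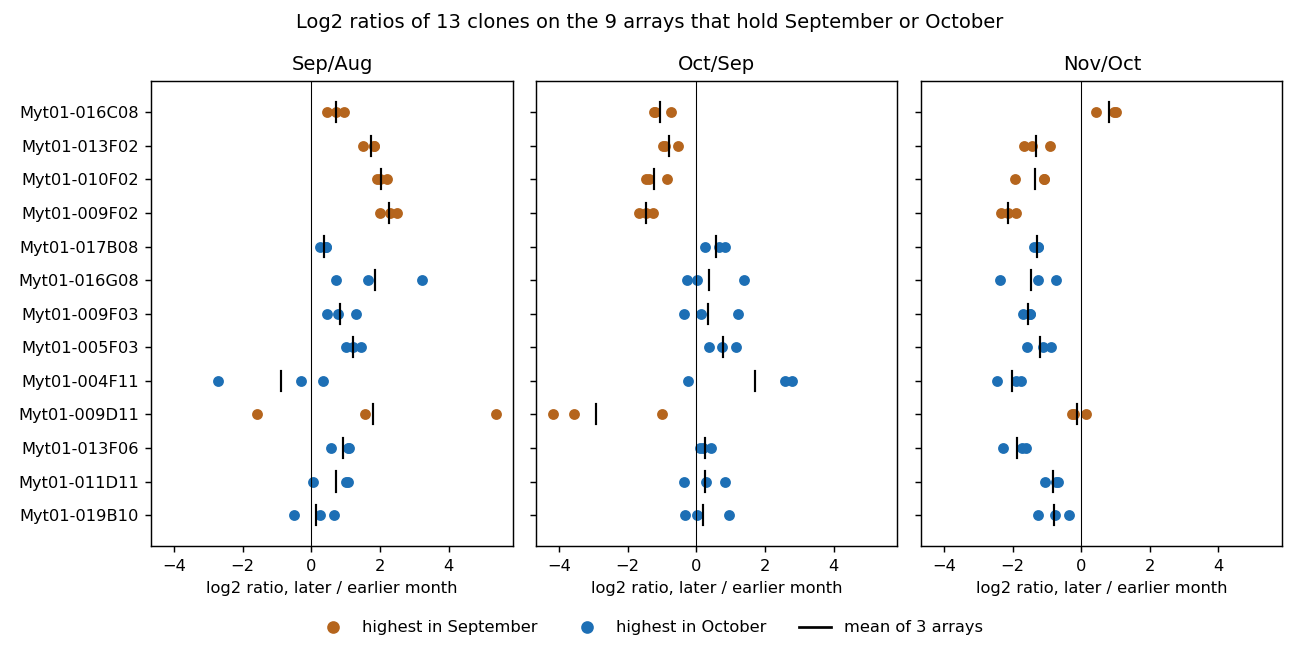
Log2 ratios (later month over earlier month) of 13 clones on the 3 Sep/Aug, 3 Oct/Sep and 3 Nov/Oct arrays; each point is an array and each bar the mean of 3. The 3 arrays of Myt01-009F02 have an SD of 0.21 to 0.24 in each step, and those of Myt01-009D11 extend from -1.58 to 5.39 in Sep/Aug.

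The largest yearly ranges were found in part in clones whose replicate arrays opposed each other. Myt01-004F11 had the largest range, 19.3-fold, with Oct/Sep ratios of 2.78, -0.25 and 2.57 and Nov/Oct ratios of -1.75, -1.90 and -2.45. Its Sep/Aug ratios of 0.33, -2.71 and -0.29 and its Jan/Dec ratios of 2.98, -2.31 and -0.25 had no common sign. The fall into November was thus shared by all arrays and the rise before it was not. With no background correction the range was 8.97-fold. Myt01-009D11 stood above background on 11.3% of its array spots, and on none of the Oct/Sep arrays. Its Sep/Aug ratios were -1.58, 1.56 and 5.39, its Oct/Sep ratios -4.18, -1.01 and -3.57, and its range of 13.0-fold moved between 6.25-fold and 29.0-fold over the alternatives.

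Near the threshold of the F test the values changed gradually. The last clone inside it had an adjusted F p of 0.0435 and a range of 1.63-fold, and the next, Myt01-012H02, had 0.0410 and 1.96-fold. The first outside it with their highest month in September or October were Myt01-007F04, with 0.0504 and 1.32-fold, and Myt01-019G02, with 0.0541 and 1.48-fold. Myt01-019G02 stood above background on none of its spots.

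Brightness gave a measure of the same clones that the rule did not use directly. It comes from the same channels of the same arrays as the ratio, so a stray value in a single channel moves both. The counts and p-values below are therefore not independent of the choice of clones. On the Oct/Sep arrays both dyes carry September or October RNA, while on 31 arrays neither does, and the rule read the ratio of the dyes and not their sum. After quantile normalization between arrays, the contrast of the Oct/Sep step with the mean of the 9 steps without these months was above 0 in 101 of the 128 clones, or 78.9%, against 44.3% of all clones. Its median was 0.31 (log2) over the 128 clones and -0.04 over all clones. By limma with Benjamini-Hochberg adjustment over all 1920 clones, 13 of the 128 were called brighter on the Oct/Sep arrays, or 10.2%, against 1.61% of all clones and 6 of the 591 other clones that passed the F test. Of the 128, 0 were called dimmer in limma, against 1.15% of all clones, and at an unadjusted p under 0.05 it gave 3 of the 128 as dimmer, or 2.34%, against 7.86% of all clones. At the same threshold 45 of the 128 were brighter, or 35.2%, against 11.1% of all clones.

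Among the 719 clones that passed the F test the median contrast was 0.33 for those highest in September and 0.30 for those highest in October. For the other 10 months of highest level it ran from -0.31 in June to 0.05 in February, and it was -0.03 in both neighbouring months, August and November. Array by array, the median brightness of the 128 clones, relative to each clone's mean over all arrays, was 0.44, 0.08 and 0.30 on the Oct/Sep arrays. On the 31 arrays without these months it lay between -0.25 and 0.16, and 2 of them were above the lowest Oct/Sep array. The arrays of a step share their month pair, so an effect of a group of slides and of the step cannot be told apart.

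**Figure D4:**
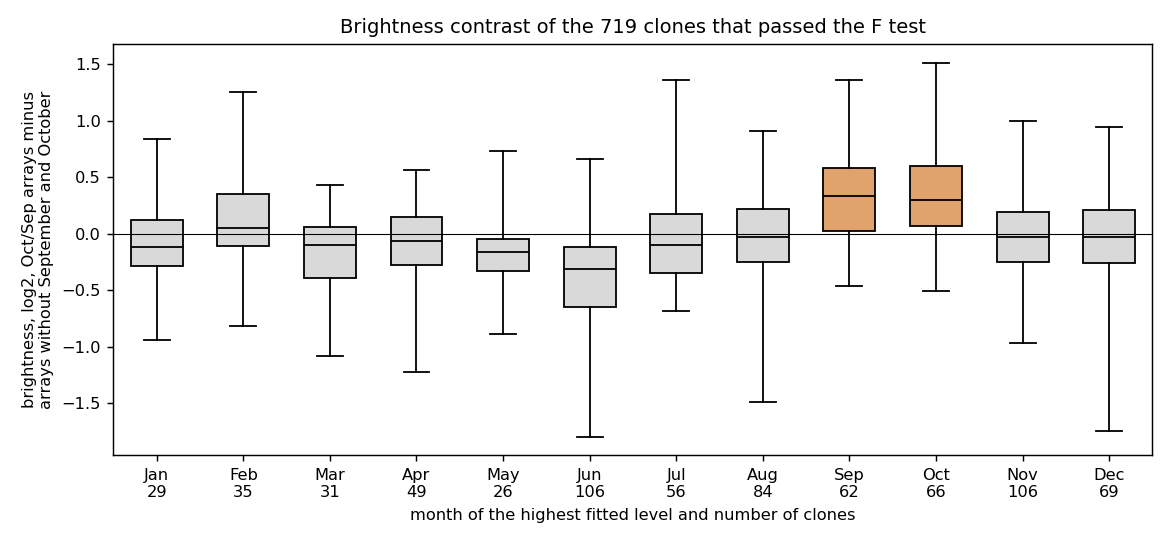
Brightness contrast (log2, mean of the Oct/Sep arrays minus the mean of the 9 steps without September and October) of the 719 clones that passed the F test, by month of the highest fitted level; boxes give quartiles and median and whiskers the full range. The boxes of September and October, with medians of 0.33 and 0.30, lie highest, and June has the lowest median at -0.31.

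The number of clones called brighter depended on the scaling. With median centring of the arrays in place of quantile normalization 5 of the 128 clones were called, of 15 among all clones, and the median contrast was 0.11. Leaving out the first or the third Oct/Sep array left 7 calls each, and with the adjusted p alone there were 21. Clones whose September and October levels were higher in the ratios also tended to be brighter, with r = 0.55 over the 128 clones and 0.47 over the 591 others, across clones measured on the same arrays.

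Myt01-013F06 had the smallest p of the brightness contrast. Its brightness on the 3 Oct/Sep arrays was 9.71, 9.83 and 10.0, and on the 31 arrays without September and October it had a lowest value of 7.05, a median of 8.48 and a highest of 9.20. These sets do not overlap. The contrast was 1.51 ± 0.20 (SE, log2), or 2.85-fold, and limma's adjusted p was 2.28e-05; it was called under each alternative run. In the ratios this clone fell in each Nov/Oct array, with -1.74, -1.61 and -2.28, and rose in each Sep/Aug array, with 1.11, 0.57 and 1.07.

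Myt01-009F02, described above, had 10.8, 10.2 and 9.86 on the Oct/Sep arrays, against a lowest value of 8.19, a median of 8.74 and a highest of 10.2 on the others. The sets overlap in 2 arrays, and the contrast was 1.36 ± 0.25 (SE, log2), with an adjusted p of 0.000563 in limma. Myt01-011D11 had 8.46, 8.67 and 9.31, against 6.78 to 8.69 with a median of 7.73, and 1 of the 31 arrays was above its lowest Oct/Sep value. Its contrast was 1.13 ± 0.21 (SE, log2), with the same adjusted p. Myt01-019B10 had 10.8, 10.9 and 10.7, against 8.68 to 10.8 with a median of 9.90, and a contrast of 0.96 ± 0.18 (SE, log2) with an adjusted p of 0.000879 in limma. Of the 31 arrays 2 were above its lowest Oct/Sep value, and its mean brightness of 10.7 in Jul/Jun was close to the 10.8 in Oct/Sep. Its ratios on the Sep/Aug arrays (0.24, -0.51 and 0.66) and on the Oct/Sep arrays (0.02, -0.34 and 0.95) kept no sign, while those on the Nov/Oct arrays (-0.77, -1.26 and -0.35) were all below 0.

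**Figure D5:**
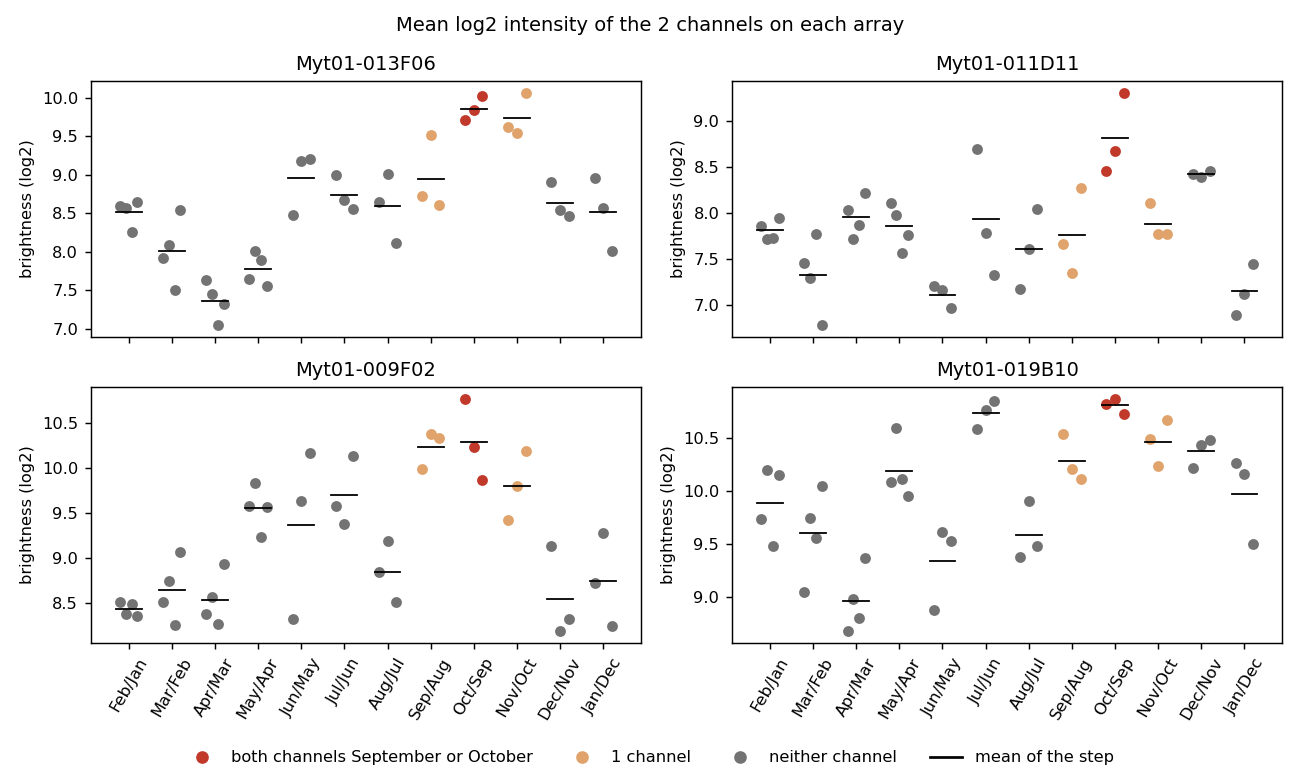
Brightness (mean log2 intensity of the 2 dyes after quantile normalization) of Myt01-013F06, Myt01-011D11, Myt01-009F02 and Myt01-019B10 on each of the 40 arrays by step, with the mean of the step as a bar. The Oct/Sep arrays of Myt01-013F06, at 9.71 to 10.0, lie above all 31 arrays without these months.

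The other 9 clones called brighter, listed here after their values were seen, had contrasts between 0.65 and 1.33. They were Myt01-004H07, Myt01-009D11, Myt01-013F02, Myt01-016D05 and Myt01-016F03 among the September clones and Myt01-007H08, Myt01-010H07, Myt01-013B05 and Myt01-017H08 among the October clones. Myt01-013B05 rested on a single array: its Oct/Sep ratios were 0.33, 0.60 and 2.22 and its brightness there 6.51, 6.60 and 9.10. Without the third Oct/Sep array its contrast was 0.26, with an adjusted p of 0.464 in limma. This is also the clone with its lowest month in September. Its difference between the mean of September and October and that of the other 10 months was -0.14 (log2). Myt01-009D11 was no longer called in 23 of 45 alternatives. Of all 13 clones called brighter, 3 were also called above the other 10 months in the ratios.

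A further measure the month coefficients leave out is the sum of the 12 steps around the year, which is 0 where the steps agree. Over the 128 clones this sum had a median of -0.24 (log2), against 0.04 over all clones. Limma called 0 of the 128 and 0% of all clones, while 20 of the 128, or 15.6%, had an unadjusted p under 0.05, against 7.5% of all clones. The October clones had a median of -0.32 and the September clones of -0.04. A dye effect was called in 3 of the 128 clones, Myt01-008H07, Myt01-009A05 and Myt01-018B11, or 2.34%, against 2.66% of all clones.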

How the data were processed

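The deposited scanner values are intensity values per spot, mean foreground and median local background of Cy5 and Cy3, which the authors read with GenePix; no normalization or flags had been applied. A table of log2 ratios that the authors deposited, normalized with limma (version not given in the sources used here), served as an alternative; 38 of its 40 columns matched normexp and loess over all spots to within 4.90e-05, apart from 1 empty cell, and 2 columns, equal to another array with its sign turned, were left out. Intensities were corrected by normexp (offset 50), normalized by loess over the clone spots within each array, turned to later over earlier month by the dye labels, and averaged over the 2 spots of a clone. Limma 3.58.1 in R 4.3.3 fitted 1 coefficient per month relative to January, without a filter on dim clones. Benjamini-Hochberg adjustment ran over all 1920 clones. A contrast was called with an adjusted p under 0.05 and B above 0, the criteria of the study. Spots were above background at 2 SD of the local background in both dyes. Precision is limited by the number of arrays, and p-values measure the spread between arrays. The fits were tested on simulated data, in which the noise of ratio and brightness was drawn separately.

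Members and lists were chosen with earlier results of these data known. Named clones are the 4 with the smallest F p in each peak month, the 4 with the largest range, the 4 with the smallest p for higher brightness, and the 2 next to the threshold on either side. Same-numbered arrays were not paired: of 204 pairs across steps, 71 had a residual correlation above 0.1. Their mean residual correlation was 0.07, against 0.03 for pairs across steps with different numbers. Alternatives were print-tip loess, loess over all spots, median centring, no background correction, a dye term, a replicate block, array weights, no May/Apr arrays, the first Apr/Mar array turned, the authors' log2 ratios, the adjusted p alone, no dim clones, and each array left out.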

Additional observations from a re-analysis of the deposited data

Results flagged for a closer look

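In the 4 steps with 4 arrays, 64 sets of 4 values were searched for an array far from the other 3, and 7 were found; chance gives about 1 in 20. Of the 7, 4 belong to the first Apr/Mar array, where they are not independent of each other. There Myt01-009F02 had a log2 ratio of -1.77, against 2.01 to 2.72 on the other 3 arrays, Myt01-005F03 -0.96 against 0.83 to 1.03, Myt01-004F11 1.34 against -1.36 to -1.02 and Myt01-019B10 1.49 against -1.70 to -1.35. In Feb/Jan, Myt01-009F02 had 1.02 on replicate 4, against 1.47 to 1.50, and Myt01-013F06 had -0.11 on replicate 3, against -0.63 to -0.55. The median log2 ratio of the 128 clones was -0.064 on Mar/Feb replicate 4, against -0.0088 to 0.0012 on the other 3.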

How the results depend on the processing

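Counts below are of clones among the 128, under the reported rule of calls. For calls other than brightness, the share of all clones was not counted under the alternatives. A change in a count therefore need not be particular to the 128. Median centring gave 81 clones by the rule, 75 of them among the 128. It left 7 above the other 10 months, 5 higher and 4 lower in Oct/Sep, 0 above January in September and 2 in October, 14 with a dye effect and 5 brighter. Array weights gave 8 above January in September and 12 in October, 7 with a closure gap and 5 with a dye effect. The adjusted p alone gave 24 above the other 10 months, 35 higher in Sep/Aug, 14 higher and 17 lower in Oct/Sep, 58 lower in Nov/Oct, 5 and 9 above January, 11 with a dye effect and 21 brighter. The authors' log2 ratios gave 6 above the other 10 months and 1 and 2 above January. With the first Apr/Mar array turned, 14 were lower in Oct/Sep and 4 and 8 above January. No background correction gave 4 above January in September, the loop without May/Apr gave 1, and print-tip loess gave 1 with a dye effect. The cause was not tested. The replicate block gave 129 clones, 127 among the 128, and moved no count by over 1.5 times.

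With each array left out the rule gave 119 to 138 clones. Calls ranged from 7 to 16 above the other 10 months (fewest without Nov/Oct replicate 3), 8 to 21 in Sep/Aug (8 and 10 without replicates 2 and 3), 6 to 11 higher and 3 to 13 lower in Oct/Sep (3 and 4 without replicates 1 and 3, 13 without Apr/Mar replicate 1), 11 to 35 lower in Nov/Oct (fewest without replicate 3), 1 to 7 above January in September, 2 to 8 in October, 0 to 1 with a closure gap (1 without Nov/Oct replicate 1), 2 to 4 with a dye effect and 7 to 15 brighter. Under the alternatives run, neither the September and October elevation, followed in 14 named clones, nor the brightness contrast, followed in the 13 clones called brighter, changed sign. These clones were chosen for a highest month in September or October or for a contrast above 0, and the alternatives share most arrays. An unchanged sign was thus favoured by the choice and is not read as support. Signal over background also limits the steps, as 18 of the 128 had no spot above background on the Nov/Oct arrays.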
